A study of Mus musculus with 26 samples.

Results

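Mecom, Prdm16 and Hlf, 3 transcription factor genes of blood stem cells, were described across sorted and immortalized mouse blood cells. They were found through the array annotation, as the probe sets that carry 1 of these symbols and no other. That gave 4 of 34760 probe sets, 2 for Mecom (10497590 and 10497608), 1 for Prdm16 (10519028) and 1 for Hlf (10389786), and none of the 3 genes had a further probe set shared with another symbol. Each probe set was kept apart, because probe sets differ in how strongly they bind their target.

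All cells were from C57BL/6 mice, and their RNA was hybridised to a gene-level oligonucleotide array, 26 arrays in all. The cultured lines had been immortalized in vitro from long-term hematopoietic stem cells (LT-HSC) or from granulocyte macrophage progenitors (GMP), and were harvested from liquid medium with or without doxycycline (dox). The series title names MLL-AF9, a leukaemia fusion oncogene that dox is known to switch on in lines of this kind. The LT-HSC-derived lines gave 3 arrays with dox and 3 without dox harvested at 72 h, and 2 arrays with dox and 3 without dox at 48 h. The GMP-derived lines gave 4 arrays with dox and 3 without dox, all at 48 h. The sorted cells were wild-type GMP (4 arrays) and wild-type LT-HSC (4 arrays), purified from bone marrow by flow cytometry. Each cultured replicate is a named line: B6-1, B6-2 and B6-3 from LT-HSC, and the same 3 names plus F6-6 from GMP. The array of LT-HSC-derived B6-1 with dox at 48 h and that of GMP-derived B6-1 without dox are not among the samples analysed here. The labels leave unsaid from which event the hours count and whether lines of the same name but different origin share a mouse. They call the sorted replicates biological but do not tie them to animals, so whether each is a separate animal is unknown. Each test pools the spread over all groups, so a p-value of sorted cells also reflects the spread of the cultured lines.

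Mecom encodes a zinc finger transcription factor, also known as EVI1, that is needed to keep long-term stem cells, and high EVI1 marks an aggressive form of acute myeloid leukaemia. Its locus gives a long protein with a PR domain (MDS1-EVI1) from an upstream start and a shorter one without it (EVI1) from a start far inside the gene. Prdm16 encodes the closest relative of the long form, a PR domain zinc finger factor that stem cells need for self-renewal. Hlf encodes a PAR bZIP factor, a basic leucine zipper protein related to the clock-output factors, that is a widely used mark of stem cell identity and is lost as blood cells mature.

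The Mecom probe sets were annotated to different transcript records of the gene. The annotation of 10497590 lists the EVI1 record and no MDS1 record, and that of 10497608 lists the MDS1 record, while a predicted record appears under both. The annotation alone thus does not assign the signal of either probe set to the long or the short form. The 250 bases before each of the RefSeq starts of Mecom are shown because these starts give rise to the long and short forms, and those of Hlf because it too was far higher in sorted LT-HSC than in any other group. All are from RefSeq on build GRCm38.p6, on the minus strand, written 5′ to 3′ and ending at the base before the start. The Mecom windows are chr3:30509760-30510009 (upstream start) and chr3:30013205-30013454 (internal start), 496555 bases apart within the gene, and that of Hlf is chr11:90390918-90391167.
Mecom upstream start: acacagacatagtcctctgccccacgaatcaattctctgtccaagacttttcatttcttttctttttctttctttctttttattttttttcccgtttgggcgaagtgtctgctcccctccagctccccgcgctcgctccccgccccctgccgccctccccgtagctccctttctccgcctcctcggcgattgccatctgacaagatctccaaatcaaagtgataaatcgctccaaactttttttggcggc
Mecom internal start: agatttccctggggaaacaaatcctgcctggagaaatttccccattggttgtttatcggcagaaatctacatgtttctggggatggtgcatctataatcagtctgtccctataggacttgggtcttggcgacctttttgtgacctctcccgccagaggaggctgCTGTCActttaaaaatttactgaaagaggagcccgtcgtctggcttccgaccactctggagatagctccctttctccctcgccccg
Hlf: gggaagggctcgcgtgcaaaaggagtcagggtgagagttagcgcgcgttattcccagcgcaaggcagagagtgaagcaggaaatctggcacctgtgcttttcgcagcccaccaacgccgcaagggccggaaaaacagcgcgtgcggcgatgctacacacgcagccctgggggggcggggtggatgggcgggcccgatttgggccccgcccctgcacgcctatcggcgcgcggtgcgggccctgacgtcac

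Capitals mark the match found to the motifs searched on both strands. The core that PAR bZIP factors such as HLF bind, TACGTAA, was in 0.432% of 32851 windows of the same length. The MEIS factor motif searched, TGACAG, was in 15.9% of the windows. The ETS factor motif, with the letters GGAAGT, was in 19.7% of them. The GATA factor motif searched was AGATAAG, which was in 2.74% of the windows. The E-box searched, with the letters CACGTG, was in 6.02% of the windows. No motif overlapped another in the windows of the members. The match was TGACAG on the opposite strand (CTGTCA), 86 bases before the internal start of Mecom, and no motif was in the other windows of the members. G and C made up 50.8% of the upstream and 50.4% of the internal Mecom window and 67.2% of the Hlf window, against a median of 52.4% over all windows. A match is a description of the letters and shows no binding.

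Levels are given as log2 signal, on which 1 unit is a 2-fold difference, and the number of arrays limits their precision. The 3 genes had their highest signal in sorted LT-HSC in each of the 4 probe sets. The cultured lines split them: Mecom was high in LT-HSC-derived lines with dox, and Prdm16 and Hlf were low in every line with or without it. As a gauge of where signals of unused genes lie, the 95th percentile of 1208 probe sets of olfactory and vomeronasal receptor genes was between 5.31 and 5.59 on the 26 arrays.

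**Figure D1:**
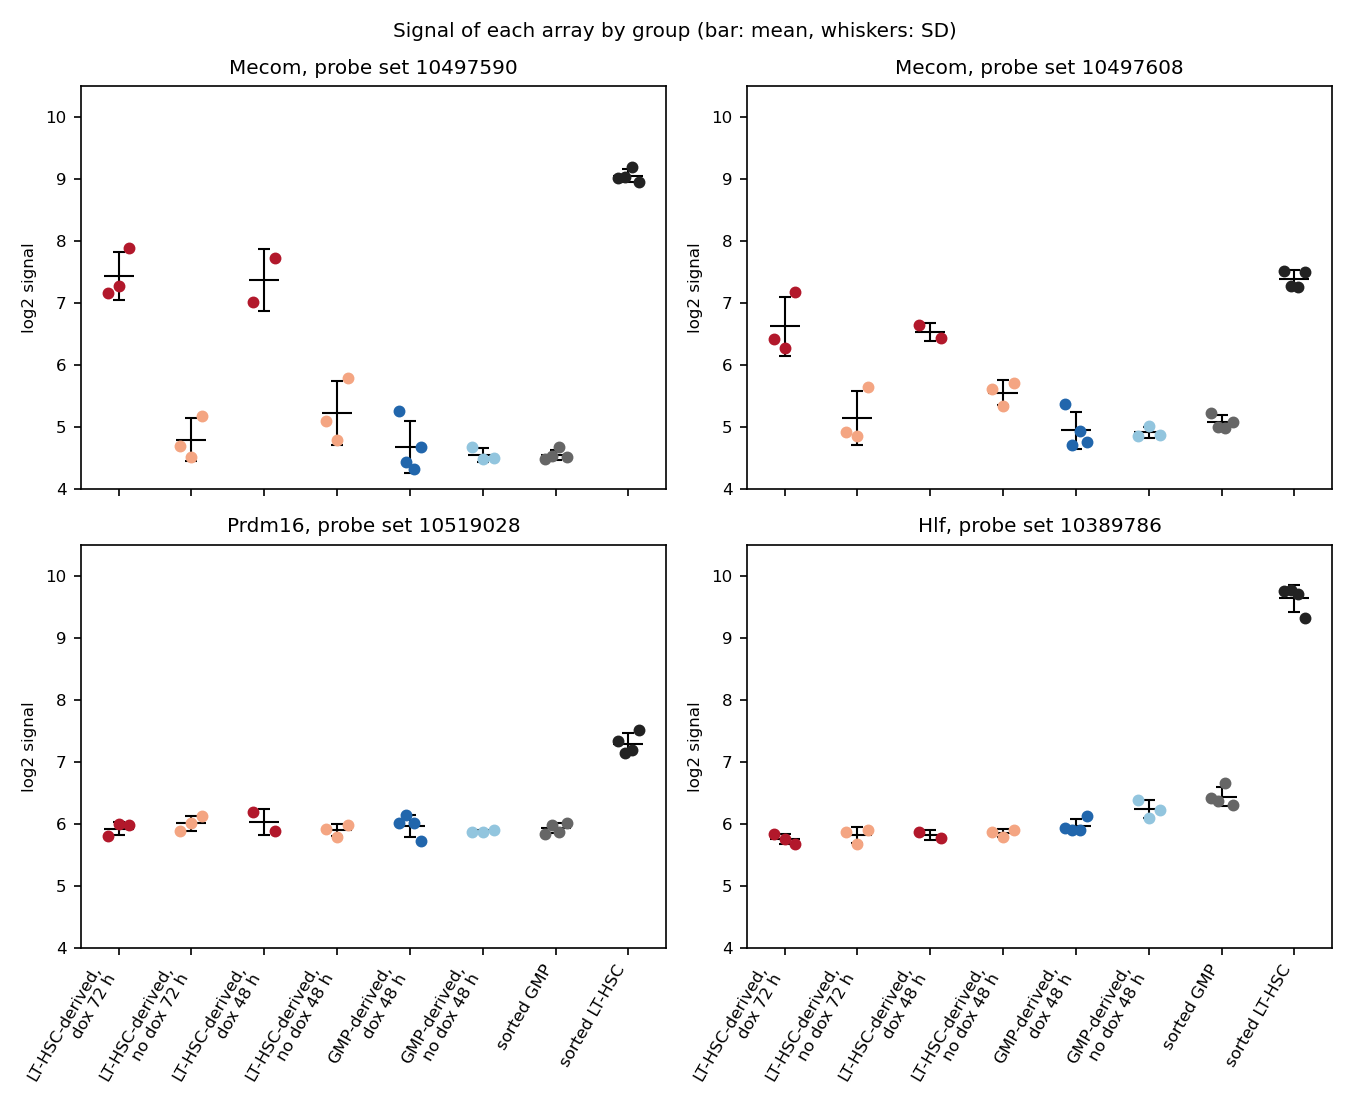
log2 signal of each array (points) in the 8 groups, with the group mean (bar) and SD (whiskers), 1 panel per probe set. In the Mecom panels, LT-HSC-derived lines with dox lie between sorted LT-HSC and all other groups. In the Prdm16 and Hlf panels, sorted LT-HSC stand alone at the top.

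The EVI1-annotated Mecom probe set 10497590 had 7.16, 7.27 and 7.88 in LT-HSC-derived lines at 72 h with dox, and 4.69, 4.51 and 5.18 in the same lines without dox at 72 h, in the order B6-2, B6-3 and B6-1. At 48 h it had 7.01 and 7.72 with dox (B6-2 and B6-3), and 5.09, 4.78 and 5.80 without dox (B6-2, B6-3 and B6-1). No array with dox overlapped an array without it at either time. In GMP-derived lines it had 5.26, 4.43, 4.32 and 4.68 with dox (B6-2, B6-3, F6-6 and B6-1), and 4.68, 4.48 and 4.50 without dox (B6-2, B6-3 and F6-6). It had 4.49, 4.53, 4.67 and 4.51 in sorted GMP, and 9.02, 9.04, 9.20 and 8.95 in sorted LT-HSC. GMP-derived lines and sorted GMP thus overlapped each other at the low end, whatever the dox.

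The means of 10497590 were 7.44 ± 0.39 (SD) with dox and 4.79 ± 0.35 without dox in LT-HSC-derived lines at 72 h, 7.37 ± 0.50 with dox and 5.22 ± 0.52 without dox at 48 h, 4.67 ± 0.42 with dox and 4.55 ± 0.11 without dox in GMP-derived lines, 4.55 ± 0.08 in sorted GMP and 9.05 ± 0.11 in sorted LT-HSC. In the order of these means, sorted LT-HSC came first and lay clear of the 2 groups of LT-HSC-derived lines with dox, which overlapped each other. These lay clear of LT-HSC-derived lines at 48 h without dox. Below that, from LT-HSC-derived lines at 72 h without dox through the GMP-derived groups down to sorted GMP, each group overlapped its neighbour. Probe set 10497590 was above its array's receptor gauge in 3 of 3 arrays with dox at 72 h, 0 of 3 without dox at 72 h, 2 of 2 with dox at 48 h and 1 of 3 without dox at 48 h. It was above it in 0 of 4 GMP-derived arrays with dox, 0 of 3 without dox, 0 of 4 of sorted GMP and 4 of 4 of sorted LT-HSC. Where a group lies under the gauge, the size of a difference from it is uncertain.

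The MDS1-annotated Mecom probe set 10497608 had the same 5 groups at the top of its order, with smaller steps between them. It had 6.43, 6.27 and 7.17 in LT-HSC-derived lines at 72 h with dox, and 4.92, 4.86 and 5.65 without dox at 72 h. At 48 h it had 6.64 and 6.43 with dox, and 5.61, 5.34 and 5.72 without dox. Again no array with dox overlapped an array without it at the same time. GMP-derived lines had 5.37, 4.70, 4.94 and 4.76 with dox, and 4.86, 5.02 and 4.87 without dox, sorted GMP had 5.23, 4.99, 4.98 and 5.09, and sorted LT-HSC had 7.51, 7.27, 7.25 and 7.50. It was above the gauge in 3 of 3 arrays with dox and 1 of 3 without dox at 72 h, and in 2 of 2 with dox and 2 of 3 without dox at 48 h. Over the 26 arrays the Mecom probe sets correlated with r = 0.977, and over the 18 cultured arrays with r = 0.957.

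Prdm16 was near 6 in every group but sorted LT-HSC. LT-HSC-derived lines had 5.80, 6.00 and 5.97 with dox at 72 h, 5.88, 6.01 and 6.13 without dox at 72 h, 6.18 and 5.88 with dox at 48 h, and 5.92, 5.79 and 5.98 without dox at 48 h. GMP-derived lines had 6.01, 6.14, 6.01 and 5.72 with dox, and 5.87, 5.87 and 5.90 without dox. Sorted GMP had 5.84, 5.98, 5.88 and 6.02, and sorted LT-HSC had 7.34, 7.14, 7.19 and 7.51. The 7 groups other than sorted LT-HSC had means between 5.88 and 6.03 and each overlapped its neighbour in the order of means, while sorted LT-HSC (7.29 ± 0.17, SD) overlapped none.

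Hlf was also highest in sorted LT-HSC. LT-HSC-derived lines had 5.84, 5.75 and 5.68 with dox at 72 h, 5.87, 5.67 and 5.91 without dox at 72 h, 5.88 and 5.76 with dox at 48 h, and 5.88, 5.79 and 5.91 without dox at 48 h. GMP-derived lines had 5.94, 5.90, 5.91 and 6.13 with dox, and 6.39, 6.10 and 6.22 without dox. Sorted GMP had 6.42, 6.37, 6.65 and 6.30, and sorted LT-HSC had 9.76, 9.77, 9.72 and 9.32. The lowest sorted LT-HSC array thus lay far above the highest array of any other group, which was of sorted GMP. Mean Hlf was 5.76 to 5.86 in the 4 LT-HSC-derived groups, 5.97 ± 0.11 (SD) with dox and 6.24 ± 0.15 without dox in GMP-derived lines, 6.44 ± 0.15 in sorted GMP and 9.64 ± 0.21 in sorted LT-HSC, and apart from sorted LT-HSC each group overlapped its neighbour in this order. Prdm16 and Hlf were above the receptor gauge on all 26 arrays, which for a single probe set does not show that the gene is used.

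Spread within groups differed between the members. The residual SD of Mecom was 0.328 for probe set 10497590 and 0.273 for 10497608, which stand at the percentiles 87.0 and 82.5 of all probe sets. That of Prdm16 was 0.133 and that of Hlf 0.138, at the percentiles 43.4 and 47.2. Part of the spread of Mecom went with the line. B6-1 had the highest value for both Mecom probe sets in each LT-HSC-derived group that holds this line, with and without dox.

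In LT-HSC-derived lines Mecom rose with dox, and no difference of Prdm16 or Hlf passed the test. At 72 h, probe set 10497590 was higher with dox by 2.64 ± 0.25 (SE; limma, adjusted p = 2.55e-06) and 10497608 by 1.48 ± 0.21 (adjusted p = 0.000285), in a comparison that called 4.54% of all probe sets. Within lines, 10497590 was higher with dox by 2.47 in B6-2, 2.76 in B6-3 and 2.70 in B6-1, and 10497608 by 1.51, 1.41 and 1.52. The step was thus of like size in the 3 lines although their levels differed. Prdm16 differed by -0.08 ± 0.11 (95% interval -0.31 to 0.14, adjusted p = 0.753) and Hlf by -0.06 ± 0.11 (-0.30 to 0.17, adjusted p = 0.836). Fitted on the 6 arrays of this comparison alone, the call of 10497608 ended (1.48, adjusted p = 0.0884) and that of 10497590 did not.

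At 48 h, where only 0.276% of probe sets were called, 10497590 was higher with dox by 2.14 ± 0.28 (limma, adjusted p = 0.000826). Its difference within lines was 1.92 in B6-2 and 2.94 in B6-3. Probe set 10497608 was 0.98 ± 0.24 higher (95% interval 0.49 to 1.47), which missed the threshold (adjusted p = 0.106), with within-line differences of 1.03 and 1.09. With the line as a block it passed, at 1.18 (adjusted p = 0.00526), and the comparison called 223 probe sets in place of 96. Prdm16 differed by 0.14 ± 0.12 (-0.12 to 0.39, adjusted p = 0.96) and Hlf by -0.04 ± 0.13 (-0.30 to 0.23, adjusted p = 0.996). The call of 10497590 ended without the B6-3 array with dox (1.79, adjusted p = 0.0751), which leaves 1 array that is assumed to vary like the other groups, and when only these 5 arrays were fitted (2.14, adjusted p = 0.257). The comparison then called 3 and 0 probe sets.

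**Figure D2:**
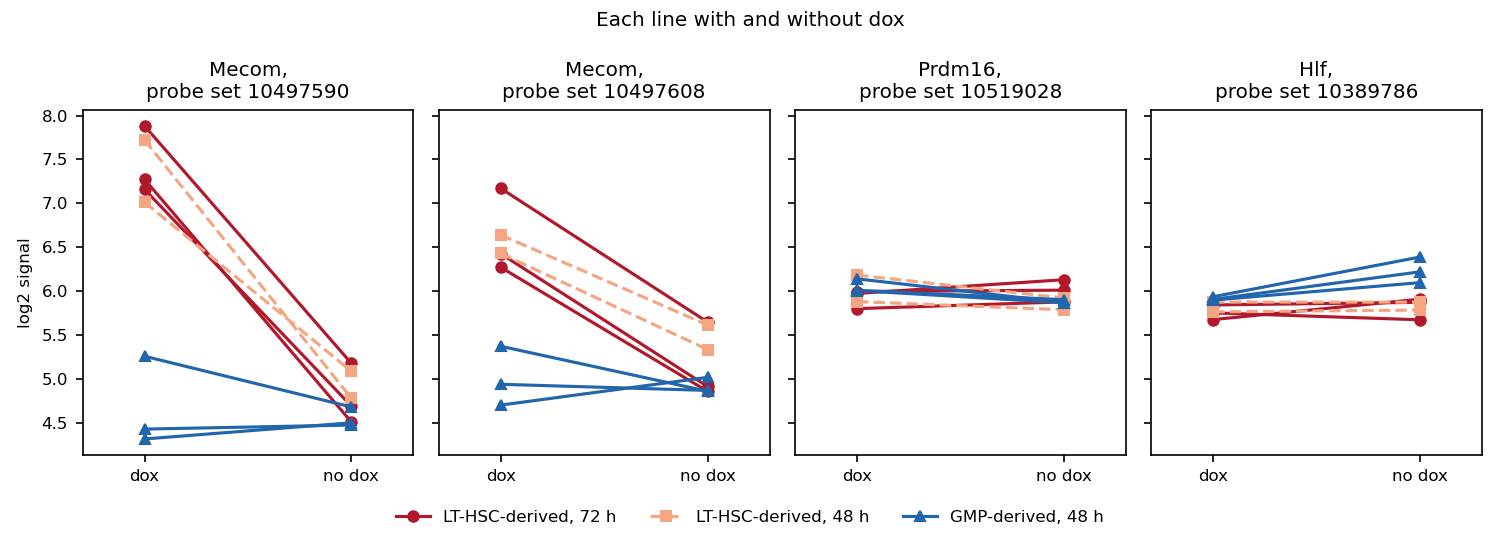
log2 signal of each line with dox (left end) and without dox (right end), joined by a line, for the 4 probe sets. LT-HSC-derived lines at 72 h (circles) and 48 h (squares) fall steeply towards no dox in the Mecom panels, while GMP-derived lines (triangles) do not. In the Prdm16 panel the lines run nearly level, and in the Hlf panel the 3 GMP-derived lines lie lower with dox.

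In GMP-derived lines at 48 h, a comparison that called 7.25% of all probe sets, no member was called. Probe set 10497590 differed by 0.12 ± 0.24 (95% interval -0.37 to 0.61, adjusted p = 0.897), 10497608 by 0.03 ± 0.20 (adjusted p = 0.977) and Prdm16 by 0.09 ± 0.10 (adjusted p = 0.772). Line B6-2 had 0.58 more Mecom signal (10497590) with dox, and B6-3 and F6-6 had -0.05 and -0.18, so that without the B6-2 array with dox the difference turned to -0.08 (adjusted p = 0.941). The Hlf array with dox was the lower of the pair in each of the 3 lines with both arrays, with differences of -0.45 in B6-2, -0.20 in B6-3 and -0.31 in F6-6. Over all arrays its difference of -0.27 ± 0.11 missed the threshold (-0.49 to -0.05, adjusted p = 0.156). With the line as a block it passed at -0.32 (adjusted p = 0.0441).

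The dox effect itself was then compared between origins at 48 h, where 0.121% of probe sets were called. That of Mecom 10497590 was larger in LT-HSC-derived than in GMP-derived lines by 2.03 ± 0.37 (limma interaction, adjusted p = 0.0277). For 10497608 the difference was 0.95 ± 0.31 (adjusted p = 0.417), for Prdm16 0.05 ± 0.16 (adjusted p = 0.995) and for Hlf 0.23 ± 0.16 (adjusted p = 0.885). The call of 10497590 rested on single arrays: leaving out 1 array at a time gave 1.67 to 2.38, and the adjusted p passed 0.05 for 8 of the 12 arrays, with the highest, 0.274, without the LT-HSC-derived B6-3 array with dox. Fitted on these 12 arrays alone it was also lost (2.03, adjusted p = 0.219).

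With dox at 48 h, LT-HSC-derived lines had more Mecom than GMP-derived lines, by 2.69 ± 0.27 for 10497590 (limma, adjusted p = 6.68e-06) and 1.59 ± 0.22 for 10497608 (adjusted p = 0.000437), in a comparison that called 0.909% of probe sets. When only the 6 arrays were fitted, 10497608 had an adjusted p of 0.0517. Without dox, where 3.79% were called, the differences were 0.67 ± 0.25 (adjusted p = 0.183) and 0.64 ± 0.21 (adjusted p = 0.11), and their arrays did not overlap between origins. Prdm16 differed by 0.06 ± 0.12 with dox and 0.02 ± 0.11 without (adjusted p = 0.977 and 0.979). Hlf differed by -0.38 ± 0.11 between LT-HSC-derived and GMP-derived lines without dox, with no overlap between origins and an adjusted p of 0.0661. That p fell to 0.0377 when only 1 probe set per gene was tested, to 0.0409 when dim probe sets were left out and to 0.0164 with array weights, so that the call depends on these settings. With dox the Hlf difference was -0.15 ± 0.12 (adjusted p = 0.874), and these arrays did not overlap between origins either. The share of all probe sets without overlap was not counted, so overlap is only a description, here and elsewhere.

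Between 72 h and 48 h no difference of a member passed the test. With dox, LT-HSC-derived lines differed by 0.07 for 10497590, 0.09 for 10497608, -0.11 for Prdm16 and -0.06 for Hlf, and the comparison called 0% of probe sets (limma; 868 had an unadjusted p under 0.05, and blocking by line gave 1 call). Without dox, 10497590 differed by -0.43 ± 0.25 (adjusted p = 0.525), with -0.40 in B6-2, -0.27 in B6-3 and -0.62 in B6-1. Probe set 10497608 differed by -0.41 ± 0.21 (adjusted p = 0.452), where 0.0834% of probe sets were called (29, and 101 with the line as a block). The dox effect at 72 h minus that at 48 h was 0.50 ± 0.38 for 10497590 and 0.50 ± 0.32 for 10497608 (adjusted p = 0.922 and 0.912). For Prdm16 it was -0.22 ± 0.16 and for Hlf -0.03 ± 0.17. That comparison called 0% of probe sets, 1854 had an unadjusted p under 0.05, and 1 was called with the line as a block.

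**Figure D3:**
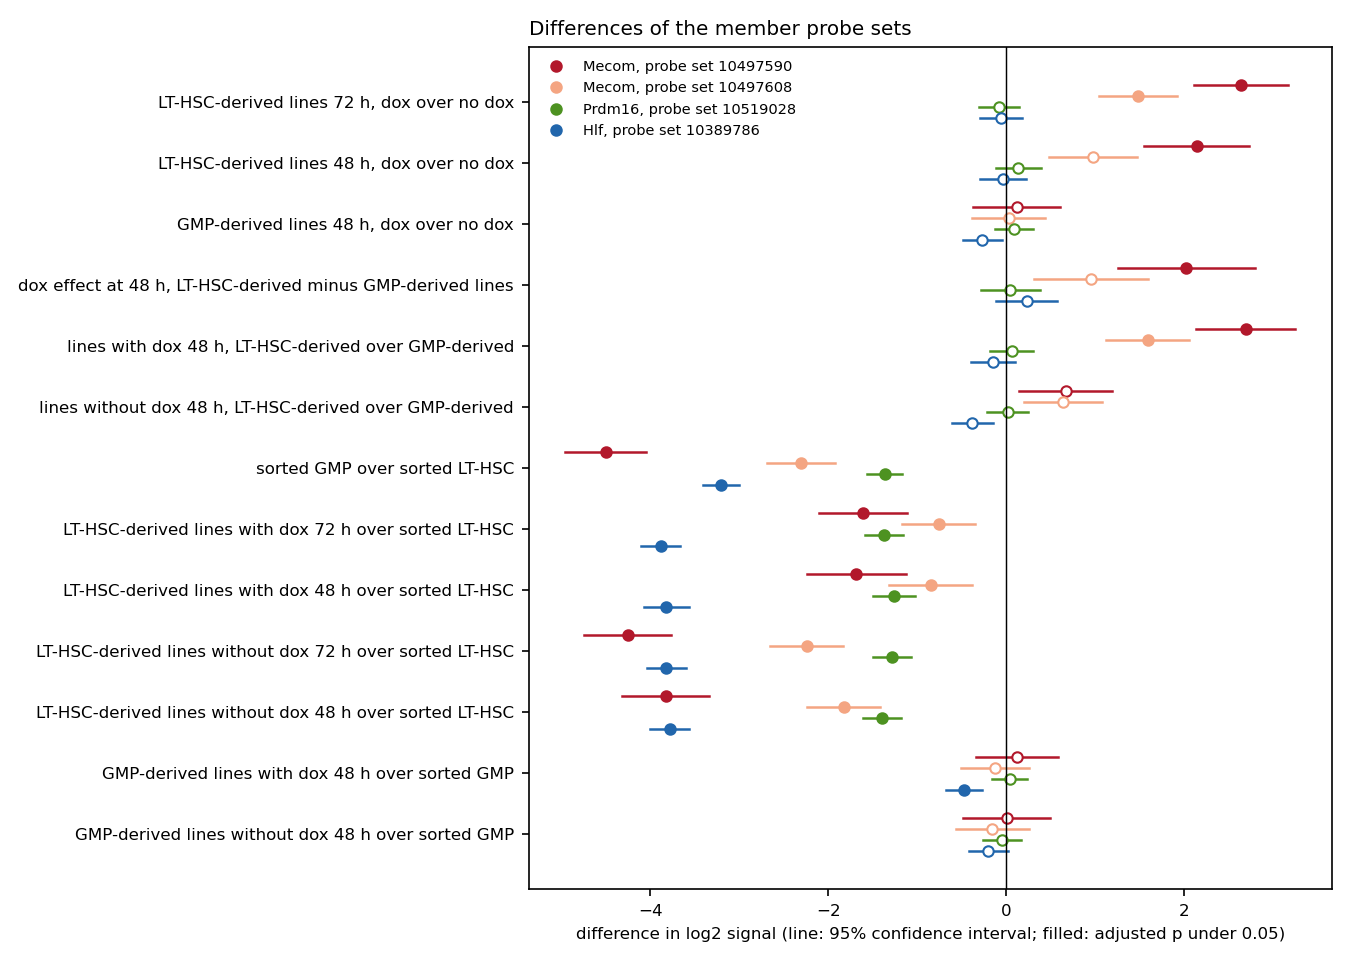
Difference in log2 signal (points) with its 95% confidence interval (lines) for the 4 probe sets in 13 comparisons. Points are filled where the adjusted p is under 0.05, and colours tell the probe sets apart. The Mecom points stand right of 0 in LT-HSC-derived lines with dox over no dox, and all members stand left of 0 in each comparison with sorted LT-HSC.

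In sorted GMP all 4 probe sets were lower than in sorted LT-HSC, and no arrays overlapped, where 25.3% of all probe sets were called. Hlf fell by 3.20 ± 0.10 (limma, adjusted p = 5.78e-16), Prdm16 by 1.37 ± 0.09 (adjusted p = 2.71e-10), Mecom 10497590 by 4.50 ± 0.22 (adjusted p = 9.99e-13) and the MDS1-annotated probe set 10497608 fell by 2.31 ± 0.18 (adjusted p = 2.48e-09). Because these are bulk samples, fewer cells of a type and less RNA per cell cannot be told apart, here and below.

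LT-HSC-derived lines fell short of sorted LT-HSC for all 4 probe sets in each of the 4 culture groups. These comparisons share the sorted LT-HSC arrays with each other and with the comparison of sorted GMP, and called 28.9% of probe sets with dox at 72 h, 24.8% with dox at 48 h, 29.8% without dox at 72 h and 29.5% without dox at 48 h. With dox at 72 h, Mecom was closest to the level of sorted LT-HSC, at -1.61 ± 0.24 for 10497590 (limma, adjusted p = 1.54e-05) and -0.76 ± 0.20 for 10497608 (adjusted p = 0.00525). Without dox at 72 h the gaps were -4.26 ± 0.24 and -2.24 ± 0.20. At 48 h, 10497590 stood at -1.68 ± 0.27 with dox and -3.83 ± 0.24 without dox. Probe set 10497608 stood at -0.85 ± 0.22 with dox at 48 h (adjusted p = 0.00699), a call that ended without the B6-3 array (-0.74, adjusted p = 0.0918). At 48 h without dox it stood at -1.83 ± 0.20.

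The gaps of the other members were of like size with and without dox. Prdm16 stood at -1.37 ± 0.10 with dox and -1.29 ± 0.10 without dox at 72 h, and at -1.26 ± 0.12 with dox and -1.40 ± 0.10 without dox at 48 h. Hlf stood at -3.88 ± 0.11 with dox and -3.82 ± 0.11 without dox at 72 h, and at -3.82 ± 0.12 with dox and -3.78 ± 0.11 without dox at 48 h. The largest adjusted p among these 8 values was 3.4e-08.

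Against sorted GMP, GMP-derived lines had no called difference in Mecom or Prdm16, with or without dox. Mecom 10497590 differed by 0.12 ± 0.22 with dox (adjusted p = 0.784) and 0.00 ± 0.24 without dox (adjusted p = 0.995), and Prdm16 by 0.04 ± 0.09 and -0.05 ± 0.10. Hlf was lower than in sorted GMP with dox, at a difference of -0.47 ± 0.10 (limma, adjusted p = 0.00156, no overlap between the groups), where 17.2% of probe sets were called. Without dox Hlf differed by -0.20 ± 0.11 (adjusted p = 0.212), where 19.1% were called.

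The labelled cell types were checked against marker lists. The 6 measured LT-HSC markers averaged 4.96 to 5.40 on all other arrays and 7.14 to 7.31 on those of sorted LT-HSC. In the LT-HSC-derived lines 4 or 5 of the 6 had a group mean under the gauge, among them Slamf1 and Tek, while Kit, which progenitors carry too, lay above it at 7.34 to 8.05. The 7 GMP markers averaged 9.44 to 10.2 on all arrays but those of sorted LT-HSC, where they averaged 6.00 to 6.51. Single markers moved with dox. The Fc receptor Fcgr3 fell in LT-HSC-derived lines by 0.97 ± 0.13 at 72 h and by 0.82 ± 0.15 at 48 h, and it fell by 0.64 ± 0.13 in GMP-derived lines (limma, adjusted p = 0.00021, 0.0178 and 0.00211). The cytokine receptor Csf3r fell by 0.70 ± 0.11 in GMP-derived lines (adjusted p = 0.000334), and Kit rose by 0.71 ± 0.18 in LT-HSC-derived lines at 72 h (adjusted p = 0.0274). The GMP markers Elane, Mpo, Ctsg, Prtn3 and Ms4a3 had higher means with dox in LT-HSC-derived lines at 72 h. Elane averaged 9.63 with dox and 9.20 without dox there, and Ctsg 11.30 and 10.91. In both origins at 48 h, Mpo and Ctsg had higher means with dox, and Prtn3 and Ms4a3 lower ones. All 5 measured megakaryocyte markers were called lower in sorted GMP than in sorted LT-HSC, as Mecom was, against 25.3% of all probe sets called. They averaged 5.34 to 5.87 in sorted GMP and 7.26 to 7.68 in sorted LT-HSC, and 3 of the 5 were under the gauge in sorted GMP and in both GMP-derived groups, against 0 in sorted LT-HSC. On arrays with dox at 48 h they averaged 5.69 to 5.74 in LT-HSC-derived lines and 5.24 to 5.40 in GMP-derived lines. Between origins 0 of the 5 were called with or without dox (limma, adjusted p from 0.0787 to 0.986), against 0.909% and 3.79% of all probe sets. That count is near these shares. In LT-HSC-derived lines at 72 h the megakaryocyte markers averaged 5.79 to 6.35 with dox and 5.76 to 6.99 without dox. Among them Pf4 averaged 5.75 with dox and 7.50 without dox at 72 h, a difference of -1.75 ± 0.51 that missed the threshold (limma, adjusted p = 0.0559). The other megakaryocyte markers were not called there either and went both ways. Gp5 differed by -0.20, Itga2b by 0.11, Gp9 by 0.13 and Ppbp by 0.05. The part of these megakaryocyte, GMP and LT-HSC markers in the differences of the members was not tested. Of the 6 endothelial and stromal markers, 4 were under the gauge in sorted LT-HSC and 5 in every other group, and of the 4 B cell markers 2 or 3 were under it in each group. Endomucin (Emcn), which stem cells also carry, averaged 3.51 to 3.78 outside sorted LT-HSC and 7.70 in them. The 4 T cell markers averaged 5.02 to 5.60 outside sorted LT-HSC and 5.52 to 5.68 in them, and the 3 erythroid markers 5.33 to 5.87 outside sorted LT-HSC and 5.53 to 5.61 in them.

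The relatives of Mecom and Prdm16 were read beside the share of all probe sets called. Of 13 other PRDM genes 11 were measured, and 0 were called in either direction in sorted GMP over sorted LT-HSC, where 25.3% of all probe sets were, with a median difference of -0.05 against 0.00 over all probe sets. With dox at 72 h, against 4.54% of all probe sets, 1 of the 11 fell in LT-HSC-derived lines: Prdm1, the repressor Blimp-1 that drives plasma cell differentiation, at 4.07 with dox and 4.57 without dox (-0.50 ± 0.10, limma, adjusted p = 0.00461). Both levels of Prdm1 lie under the receptor gauge, so the size of this difference is uncertain. None of the 11 was called with dox at 48 h in LT-HSC-derived or GMP-derived lines, where 0.276% and 7.25% of all probe sets were. The dox counts are thus near those shares.

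Among the 3 bZIP relatives of Hlf, Nfil3 ran opposite to it between the sorted cells. Nfil3 encodes a repressor that binds the same DNA sites as the PAR factors. It averaged 8.49 in sorted GMP and 6.28 in sorted LT-HSC (2.21 ± 0.15, limma, adjusted p = 2.91e-10). LT-HSC-derived lines exceeded sorted LT-HSC in Nfil3 by 2.51 ± 0.17 with dox and 2.95 ± 0.17 without dox at 72 h, and by 2.32 ± 0.19 with dox and 2.80 ± 0.17 without dox at 48 h. Tef, a PAR factor, was called lower in sorted GMP (-0.26 ± 0.08, limma, adjusted p = 0.0242), and Dbp was not called, against 25.3% of all probe sets called. With dox none of the 3 was called in LT-HSC-derived lines at 72 h or 48 h or in GMP-derived lines. That is near the shares of all probe sets called there, 4.54%, 0.276% and 7.25%. Nfil3 differed by -0.45 at 72 h and -0.47 at 48 h in LT-HSC-derived lines and by -0.42 in GMP-derived lines (limma, adjusted p = 0.179, 0.639 and 0.156).

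Of 10 partner proteins of MECOM and PRDM16, 9 were measured. In sorted GMP over sorted LT-HSC 3 were lower and 1 was higher, against 25.3% of all probe sets called, with a list median of 0.00. Smad3, the TGF-beta signal transducer whose activity EVI1 represses, fell by 0.90 ± 0.09 (limma, adjusted p = 8.79e-08), the SMAD repressor Ski by 0.17 ± 0.06 and the deacetylase Hdac1 by 0.15 ± 0.06. The myeloid factor Cebpb was 0.29 ± 0.10 higher. With dox, 0 were called in LT-HSC-derived lines at 72 h or 48 h (4.54% and 0.276% of all probe sets), and in GMP-derived lines (7.25%) Ski alone was called, at -0.27 ± 0.06 (adjusted p = 0.00644). These dox counts are near the shares of all probe sets.

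Of 10 genes reported as targets of Mecom in blood cells 8 were measured, and all 8 were called between sorted GMP and sorted LT-HSC, 3 higher and 5 lower, against 25.3% of all probe sets called, with a median of -1.33. Angpt1, a niche signal that favours quiescence, fell by 4.53 ± 0.45 and the adhesion receptor Adgrg1 fell by 3.11 ± 0.20, while the myeloid factors Spi1 (1.67 ± 0.13) and Cebpa (1.67 ± 0.15) were higher (limma, adjusted p from 8.21e-11 to 8.23e-08). With dox at 72 h in LT-HSC-derived lines, where Mecom rose, 3 of the 8 rose and 1 fell, against 4.54% of all probe sets called, with a median of 0.43 against -0.01 over all probe sets. The stem cell adhesion receptor Adgrg1 rose by 0.90 ± 0.23 (limma, adjusted p = 0.0251), the ETS factor Erg by 0.86 ± 0.17 (adjusted p = 0.00487) and the integrin Itga6 by 0.69 ± 0.10 (adjusted p = 0.000379). The ETS factor Spi1 (PU.1) fell by 0.57 ± 0.15 (adjusted p = 0.0251). At 48 h, where 0.276% of all probe sets were called, none of the 8 was called in LT-HSC-derived lines.

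Some of these genes also moved in GMP-derived lines with dox, where Mecom did not pass the test. Itga6 rose by 0.57 ± 0.10 (limma, adjusted p = 0.000513), and the granulocyte factor Cebpe fell by 0.82 ± 0.12 (adjusted p = 0.000201) and Spi1 by 0.47 ± 0.14 (adjusted p = 0.0352), 1 higher and 2 lower of 8, against 7.25% of all probe sets called, with a median of 0.12. The dox effects of these 8 genes at 48 h did not pass a test of difference between the origins, with adjusted p from 0.149 for Cebpe to 0.998 for Adgrg1. Between origins, with dox at 48 h, 3 of the 8 were higher in LT-HSC-derived lines and 0 lower, against 0.909% of all probe sets called, namely Angpt1 by 2.83 ± 0.56, Adgrg1 by 1.34 ± 0.24 and Itga6 by 0.94 ± 0.11 (limma, adjusted p from 3.31e-05 to 0.0106). Without dox, against 3.79% of all probe sets called, the same 3 genes were higher too, by 3.30 ± 0.52, 1.31 ± 0.23 and 1.09 ± 0.10, along with Gata2 by 0.85 ± 0.21, and Cebpe was lower, at -0.85 ± 0.13.

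**Figure D4:**
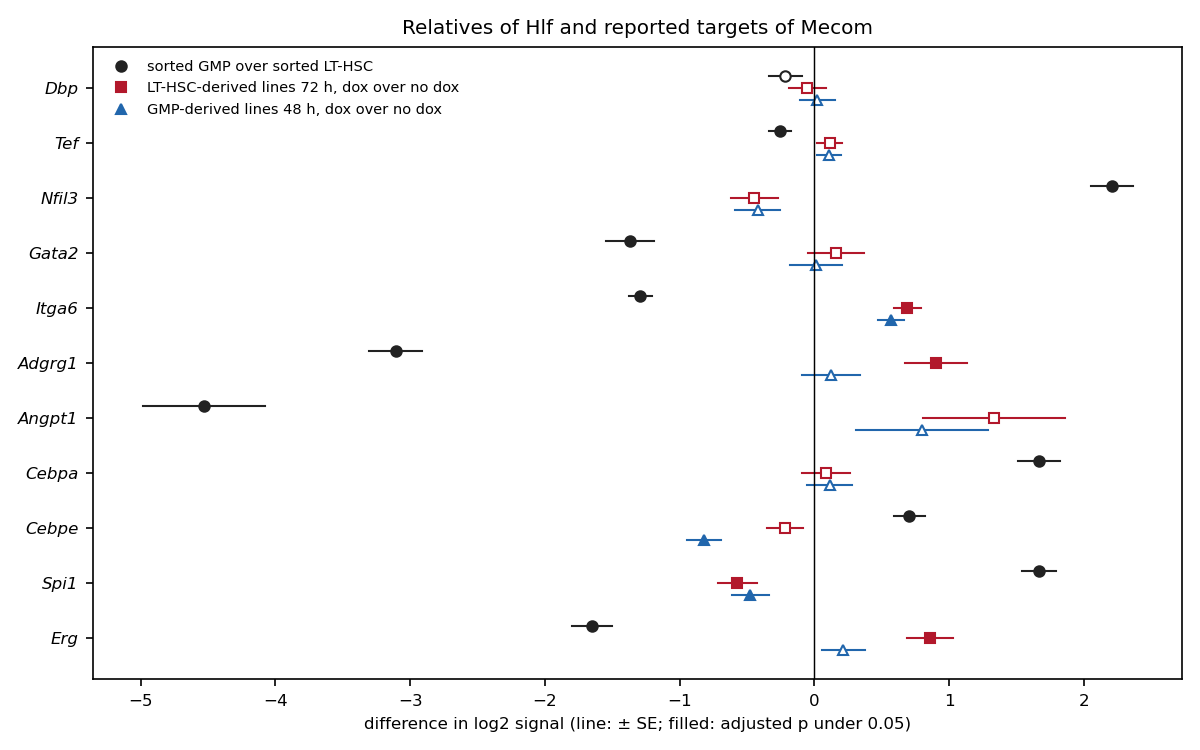
Difference in log2 signal ± SE for the bZIP relatives of Hlf (Dbp, Tef, Nfil3) and 8 reported targets of Mecom, in sorted GMP over sorted LT-HSC (circles) and with dox over no dox in LT-HSC-derived lines at 72 h (squares) and GMP-derived lines at 48 h (triangles). Filled symbols have an adjusted p under 0.05. Nfil3 is far to the right in sorted GMP, and Itga6 and Spi1 are called with dox in both origins.

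Other stem cell factors were lower in sorted GMP than in sorted LT-HSC too, and some of them rose with dox. Of 7 genes used with Hlf or related to it in reprogramming mature blood cells towards stem cells, 5 were measured, and all 5 were lower in sorted GMP than in sorted LT-HSC, where 25.3% of all probe sets were called. The HOX partner Meis1 fell most (-3.69 ± 0.16, limma, adjusted p = 1.89e-13), followed by Mycn (-1.22 ± 0.13), the zinc finger gene Zfp37 (-0.94 ± 0.10) and the LIM factor Lmo2 (-0.83 ± 0.09). Zfp37 averaged 4.65 in sorted GMP, under the receptor gauge, and 5.59 in sorted LT-HSC, near it. The same holds for the measured gene not named here, so the sizes of both differences are uncertain. With dox, Meis1 rose in LT-HSC-derived lines by 1.61 ± 0.19 at 72 h (adjusted p = 2.87e-05) and by 1.27 ± 0.21 at 48 h (adjusted p = 0.00748), and in GMP-derived lines by 2.46 ± 0.18 (adjusted p = 1.29e-08). Lmo2 rose by 0.52 ± 0.10 in LT-HSC-derived lines at 72 h and by 0.46 ± 0.09 in GMP-derived lines (adjusted p = 0.00332 and 0.00261), so 2 of 5 rose and 0 fell in each of these comparisons, against 4.54% and 7.25% of all probe sets called. Over sorted LT-HSC, 4 of the 5 were lower in LT-HSC-derived lines at 72 h with dox and all 5 in those without dox, against 28.9% and 29.8% of all probe sets called.

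The genes whose signal was most like each member were found among 2431 genes with at least 1 log2 unit between their highest and lowest group mean, by Pearson's r over the 26 arrays. All 18 genes named here had their highest group mean in sorted LT-HSC, so the 4 arrays of that group weigh heavily in each r. For Mecom (10497590) they were Itih5 (r = 0.951), Marveld2 (0.932), Gimap6 (0.929), Lax1 (0.927), Gsta4 (0.922) and Gbp4 (0.919). For Prdm16 they were Gucy1a1 (0.984), Prex2 (0.980), Adcy6 (0.978), Crispld1 (0.977), Slamf1 (0.976), the stem cell marker CD150, and Gimap8 (0.975). For Hlf they were the immediate early nuclear receptors Nr4a1 (0.986) and Nr4a2 (0.981), Tspan6 (0.985), Emcn (0.985), the angiopoietin receptor Tek (0.982) and Nbea (0.979). No gene was named for more than 1 member.

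The genes above were picked for the highest r, so the likeness of the members to each other is given with its rank. Prdm16 and Hlf correlated with r = 0.938 over the 26 arrays, and Hlf ranked 120 among the genes most like Prdm16. Mecom (10497590) correlated with Prdm16 at 0.767 and with Hlf at 0.702, at ranks 254 and 461. Over the 18 cultured arrays, without the sorted cells, the r of Mecom was 0.10 with Prdm16 and -0.50 with Hlf, and that between Prdm16 and Hlf was -0.28. For deviations from the group means over the 26 arrays, the r of these pairs was 0.01, 0.19 and -0.47. The negative r of Mecom with Hlf was thus not seen within groups. These are descriptions of arrays that share lines and groups.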

How the data were processed

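The authors deposited log2 probe set signals of 34760 probe sets for 26 arrays. The submitters' processing notes name limma and R 3.1.1; how background, probe summaries and normalization were handled is not given in the sources. Per the labels' protocols, small RNA samples were amplified and labelled with biotin before hybridisation. Array medians lay between 5.81 and 5.91, replicates of a group correlated with r from 0.979 to 0.991, and no arrays were identical.

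Groups came from the labels. A mean per group was fitted to all arrays and probe sets (lmFit, contrasts.fit and eBayes of limma 3.58.1, run under R 4.3.3), with 16 comparisons, 2-sided, each adjusted by the Benjamini-Hochberg method over all 34760 probe sets and called at an adjusted p under 0.05. The members and lists were chosen with earlier results of these data known. Named genes are the members, up to 4 called members of a list per comparison by size, and the 6 genes most like each member by r, without predicted genes, microRNAs, receptors of the senses and immune receptor segments. A listed gene is represented by its probe set with the highest mean. The procedure was tested on simulated data for dox at 72 h in LT-HSC-derived lines only. Noise there was drawn independently for each array, so the test does not cover the pairing of arrays by line.

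Alternatives were quantile normalization, median centring, 1 probe set per gene, a filter on dim probe sets, only the groups compared, array weights, a trended and robust prior, replicate blocks, and leaving out each array. Lines pair the dox and no dox arrays by their labels: the deviations of same-line arrays correlated with r of 0.27 and 0.20 in LT-HSC-derived lines at 48 h, 0.19, 0.16 and -0.10 at 72 h, and 0.12, 0.18 and 0.25 in GMP-derived lines. A planned comparison of the proteins was not run. Promoter windows are RefSeq's, on GRCm38.p6.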

Additional observations from a re-analysis of the deposited data

Results flagged for a closer look

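The Hlf signal of 1 GMP-derived array with dox, that of line B6-1, was 6.13, against 5.90 to 5.94 on the other 3 arrays of its group. Its gap to the nearest array was 0.834 of the range of the group, above Dixon's critical value for 4 samples. This is the line with no array without dox, so it enters no within-line difference. The Hlf signal of sorted LT-HSC replicate 4 was 9.32, against 9.72 to 9.77 on the other 3 arrays, a gap of 0.888 of the range. Of 12 groups of 4 arrays checked over the member probe sets these 2 exceeded the critical value, and chance flags about 1 in 20.

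The dox effect on Mecom probe set 10497590 at 48 h was larger in LT-HSC-derived than in GMP-derived lines by 2.03 ± 0.37 (limma interaction, adjusted p = 0.0277). That call ended without 8 of the 12 arrays in turn (adjusted p up to 0.274) and in a fit restricted to those 4 groups (adjusted p = 0.219), and probe set 10497608 was not called (0.95 ± 0.31, adjusted p = 0.417). Each of the 2 LT-HSC-derived lines with both arrays rose, by 1.92 and 2.94, while the 3 GMP-derived lines gave 0.58, -0.05 and -0.18.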

How the results depend on the processing

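Quantile normalization, median centring and the trended and robust prior changed no count of calls by over 1.5 times and no call of a member. Prdm16 in LT-HSC-derived over GMP-derived lines without dox (0.02) turned to -0.00407 under quantile normalization and -0.00743 under median centring. Hlf in that comparison passed with 1 probe set per gene (-0.379), the dim filter (-0.379) and array weights (-0.424). Fitted on only the groups compared, Mecom 10497590 at 48 h (2.14) and its interaction (2.03) lost their calls. Counts of calls then were 335 (1577 in the model of all arrays) for dox at 72 h, 0 (96) at 48 h, 1189 (2520) in GMP-derived lines, 9 (42) for the interaction of origin, 77 (316) and 164 (1317) between origins with and without dox, 5651 (8609) for dox at 48 h over sorted LT-HSC and 1 (29) for 72 h over 48 h without dox. This last count was 46 with the dim filter and 97 with array weights. GMP-derived lines with dox over sorted GMP had 3943 calls with 1 probe set per gene (5981), where fewer features are tested. Dox at 48 h had 147 calls with array weights.

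With the line as a replicate block, Hlf in GMP-derived lines with dox (-0.322; -0.318 with array weights) and Mecom 10497608 for dox at 48 h in LT-HSC-derived lines (1.18) were called, dox at 48 h had 223 calls, 72 h over 48 h had 1 call with dox and 101 without dox, and the change of the dox effect with time had 1. Mecom with dox at 72 h over 48 h turned to -0.162 (10497590) and -0.115 (10497608). The block changed no other call of a member, and blocks by sorted replicate number or by line name across origins changed none. Without LT-HSC-derived line B6-1, an alternative chosen after seeing the data, dox gave 936 calls at 72 h and 55 at 48 h, and Hlf turned to 0.0243 at 72 h and 0.0344 for the change of the dox effect with time. Mecom 10497608 at 48 h passed there (1.06) and with array weights (1.00).

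Leaving out 1 array at a time gave 839 to 1421 calls for dox at 72 h, 3 to 79 at 48 h, 1293 to 2401 in GMP-derived lines, 12 to 37 for the interaction of origin, 0 to 1 for the change with time, 70 to 297 and 659 to 1080 between origins with and without dox, 5600 to 8625 for dox at 48 h over sorted LT-HSC, and 0 to 1 with dox and 0 to 56 without dox for 72 h over 48 h. The count at 72 h was 839 and 882 without the B6-2 array with and without dox and 896 without that of B6-1 with dox. That at 48 h was 34 and 3 without B6-2 and B6-3 with dox, and 50 and 47 without B6-3 and B6-1 without dox. The GMP-derived count of 1293 was without B6-3 without dox. Mecom 10497590 then ranged from 1.79 to 2.50 for dox at 48 h and from 1.67 to 2.38 for the interaction. Uncalled values near 0 changed sign. For Mecom 10497590 these ranged from -0.0774 to 0.236 for dox in GMP-derived lines, from -0.0733 to 0.241 and -0.0601 to 0.0442 for GMP-derived lines with and without dox over sorted GMP, and from -0.283 to 0.425 for 72 h over 48 h with dox. For 10497608 they ranged from -0.186 to 0.263 for 72 h over 48 h with dox, with the turned values -0.0175 and -0.186, and from -0.115 to 0.109 for dox in GMP-derived lines. Prdm16 ranged from -0.016 to 0.286 for dox at 48 h, from -0.106 to 0.197 for the interaction, from -0.0888 to 0.214 and -0.0254 to 0.0715 between origins with and without dox, from -0.0144 to 0.125 for GMP-derived lines with dox over sorted GMP and from -0.260 to 0.0421 for 72 h over 48 h with dox. Hlf ranged from -0.092 to 0.0200 for dox at 48 h, from -0.0975 to 0.0307 for the change of the dox effect with time and from -0.0825 to 0.0348 for 72 h over 48 h without dox. The cause of these changes was not tested. The signal of the Mecom probe sets near the receptor gauge limits the sizes of their differences.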
